A study of Mus musculus with 6 samples.

Results

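Transcripts of the Nodal pathway were measured in murine ESCs after knockdown of the cohesin subunit SMC1 or of the condensin subunits CAPH2 and SMC2. The group held 9 genes: the ligands Nodal and Gdf3, the secreted antagonists Lefty1 and Lefty2, the coreceptor Tdgf1 (Cripto), the type II receptor Acvr2b, the signal transducer Smad3, and the intracellular inhibitors Smad7 and Skil. They were taken by name from 20706 genes of the count tables, each as the RefSeq row with the most counts. The choice was made with earlier results of these data known, so counts of the 9 beside all rows are descriptive. All 9 were above the low-count filter in every comparison.

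Nodal is a secreted ligand of the TGF-β family that binds activin receptors together with the GPI-linked protein encoded by Tdgf1. The receptors phosphorylate SMAD2 and SMAD3, which enter the nucleus with SMAD4 and act with DNA-binding partners such as FOXH1. Lefty1, Lefty2, Smad7 and Skil are known as target genes of the pathway whose products dampen it. Murine ESCs are known to express Nodal, its antagonists and Cripto at rest.

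V6.5 is a C57BL/6-129 murine ESC line. Cells were infected with lentiviral shRNA constructs in the presence of polybrene and grown for 24 hr before selection. They were selected in puromycin (0.5 µg/ml for 48 hr, then 1 µg/ml for 48 hr) and collected 96 hr post selection. There was 1 library with a control shRNA against GFP, 1 with an SMC1 shRNA, 2 with CAPH2 shRNAs and 2 with SMC2 shRNAs, each of a pair from a different hairpin (#1 and #2). The CAPH2 hairpins are numbered here 1 and 2 after the replicate numbers in the labels. The construct identifiers in the labels are those of CAPH2 #1 and #2 in the study's methods, but the labels also call these libraries #3 and #4, numbers that the methods give to other constructs, so the hairpin identity is not beyond doubt. The cells had been grown on irradiated mouse embryonic fibroblasts and then for 1 passage on gelatin. The labels do not say whether the libraries of a pair came from separate infections, so every p-value below measures only the spread between these libraries. SMC1 is a core subunit of cohesin, SMC2 a core subunit of both condensins, and CAPH2 a subunit of condensin II.

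The libraries held 25016322 to 30988288 counts over RefSeq rows. Smc1a was left at 39.9% of its GFP level with the SMC1 shRNA, Ncaph2 at 21.0% and 34.8% with the CAPH2 hairpins, and Smc2 at 70.7% and 71.9% with the SMC2 hairpins. These genes also differed from GFP in the other libraries. Ncaph2 was at 67.3% with SMC1 and at 79.6% and 80.9% with SMC2. Smc2 was at 157.4% with SMC1 and at 158.9% and 152.4% with CAPH2. Smc1a was at 115.6% to 130.2% with CAPH2 and SMC2. The part of these unequal knockdowns in the comparisons was not tested. The SMC1 library stood apart from the others in cell type markers. The summed RPKM (read density over exons, scaled to the reads of each library) of 8 ESC markers, among them Pou5f1, Nanog and Sox2, was 2692 in the GFP library, 2246 to 2396 in the 4 CAPH2 and SMC2 libraries and 1215 in the SMC1 library, where 8 of 8 were below GFP. The sum of 8 fibroblast markers was 52.6 with GFP, 57.9 to 83.1 with CAPH2 and SMC2 and 108.1 with SMC1, where 8 of 8 were above GFP, while the matrix genes Lum and Dcn stayed below 1 in all 6 libraries. Sums for 8 primitive endoderm markers were 31.8, 34.4 to 38.5 and 52.9 in the same order (6 of 8 above GFP in the SMC1 library), with Gata6, Sox17, Sox7 and Pdgfra below 1 throughout, and for 8 trophectoderm markers 169, 129 to 175 and 291 (5 of 8 above, 2 below), with Elf5 below 1. The endoderm sum rose mainly through Col4a1 (12.2 with GFP, 34.9 with SMC1), while Lama1 fell (13.1 and 6.47). Dab2 (2.0 and 5.5) and Gata4 (2.4 and 3.6) also rose. The trophectoderm sum rose mainly through Krt8 (51.4 and 117.5) and Krt18 (61.0 and 156.4), while Tfap2c fell (51.2 and 5.85). At lower levels, Cdx2 (0.325 and 2.59), Krt7 (3.14 and 5.94) and Gata3 (0.65 and 1.55) also rose, and Hand1 fell (1.74 and 1.04). The part of these shifts in the SMC1 results below was not tested.

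The promoter sequences of the ligand and its coreceptor are shown because these genes sit at the head of the pathway and because SMAD3 and SMAD4 are known to recognise the letters AGAC (GTCT on the other strand). Each is the 250 bases before the RefSeq start in build GRCm38.p6, read 5′ to 3′ along the gene, with AGAC or GTCT in capitals. The Nodal promoter lies at chr10:61417722-61417971 on the plus strand and the Tdgf1 promoter at chr9:110946159-110946408 on the minus strand.
Nodal: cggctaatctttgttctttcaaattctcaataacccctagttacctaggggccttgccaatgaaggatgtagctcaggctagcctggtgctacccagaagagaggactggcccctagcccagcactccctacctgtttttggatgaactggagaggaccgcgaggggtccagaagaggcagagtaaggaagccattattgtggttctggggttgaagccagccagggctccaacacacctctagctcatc
Tdgf1: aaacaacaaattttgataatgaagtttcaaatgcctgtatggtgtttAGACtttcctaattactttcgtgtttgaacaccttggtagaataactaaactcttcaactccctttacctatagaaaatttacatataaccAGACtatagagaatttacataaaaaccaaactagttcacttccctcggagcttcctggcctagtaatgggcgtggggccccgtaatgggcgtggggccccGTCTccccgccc
The Nodal window held 0 matches to AGAC or GTCT and the Tdgf1 window held 3, at -203, -112 and -12 from the start. At least 1 match was present in 83.0% of 27025 promoter windows of this length and at least 3 in 29.0%, so neither window is unusual in this count. Of the 9 genes, 4 were matched in the RefSeq promoter table. Lefty1, Lefty2, Gdf3, Skil and Smad7 were not.

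The coreceptor was the most abundant of these transcripts. In RPKM, the order in the GFP library was Tdgf1, Lefty1, Gdf3, Lefty2, Nodal, Skil, Smad7, Acvr2b and Smad3. Tdgf1 at 606 was 64.8 times Smad3 at 9.37. Of the 12045 genes expressed with GFP (RPKM 1 or more), Tdgf1 exceeded 99.7%, Lefty1 97.1%, Nodal 79.7% and Smad3 38.1%. The same order held with CAPH2 #1, CAPH2 #2 and SMC2 #2. Smad7 (32.6) stood above Skil (30.1) with SMC2 #1. In the SMC1 library Lefty2 (112) passed Gdf3 (108) and Skil (60.8) passed Nodal (50.1). Over the 4 CAPH2 and SMC2 libraries the ranges of neighbours in this order did not overlap, except for Skil (30.1 to 35.8) and Smad7 (26.6 to 32.6).

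**Figure D1:**
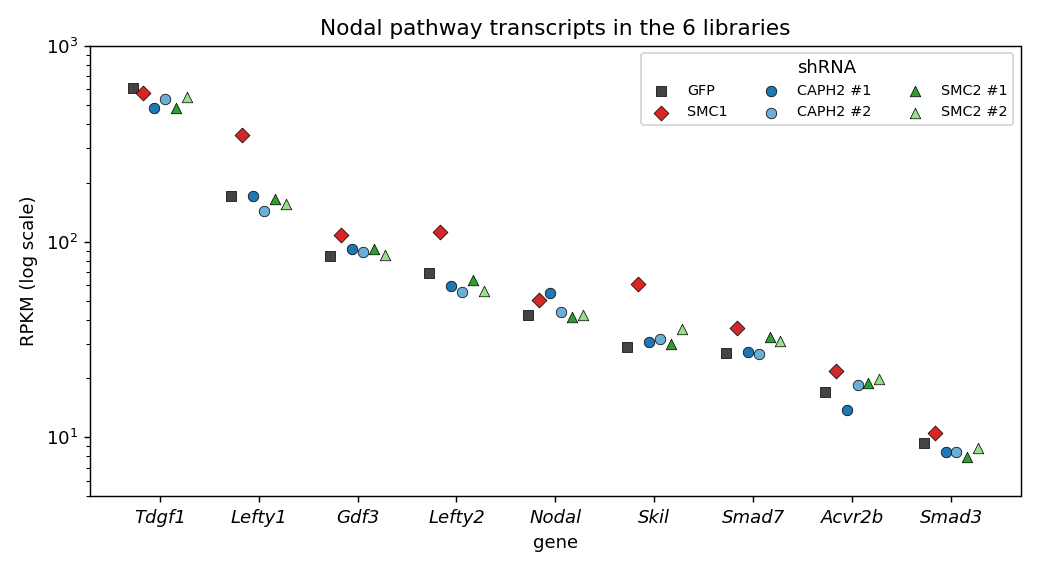
Deposited RPKM (log axis) of the 9 genes in the 6 libraries, 1 point per library with no error bar. Tdgf1 lies highest at 482 to 606, and the SMC1 point (red diamond) is clear of the other 5 for Lefty1 at 351, Lefty2 at 112 and Skil at 60.8.

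The ligands stayed within narrow ranges. Nodal (NM_013611, mm9 chromosome 10 from 60880720 to 60888085, plus strand) had an RPKM of 42.3 with GFP, 50.1 with SMC1, 54.4 and 43.7 with CAPH2 #1 and #2, and 41.1 and 42.3 with SMC2 #1 and #2. The highest value was that of CAPH2 #1, above SMC1, while its partner hairpin was close to GFP. Against GFP the log2 change was 0.24 with SMC1, 0.36 with CAPH2 #1 and 0.05 with CAPH2 #2, so the hairpins for 1 target differed by more than SMC1 differed from GFP. Gdf3 (NM_008108, chromosome 6 from 122555421 to 122560089, minus strand), a ligand that also signals through Cripto, had an RPKM of 84.5 with GFP, 108 with SMC1, 92.0 and 88.3 with CAPH2 and 92.0 and 85.3 with SMC2. SMC1 was highest and GFP lowest, and SMC2 #2 at 101.0% of GFP was within counting error (95% interval 96.5 to 105.7). A stretch of 6.12% of the Gdf3 transcript matches repeats at 447 other places of mm9, and how many reads the alignment discarded there was not tested.

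Lefty1 and Lefty2, whose products block Nodal and its coreceptor, were higher with SMC1 shRNA and not with the condensin shRNAs. Lefty1 (NM_010094, chromosome 1 from 182865170 to 182868532, plus strand) had an RPKM of 171.1 with GFP, 351 with SMC1, 170.5 and 144 with CAPH2, and 165 and 156 with SMC2. The SMC1 value was 205% of GFP (95% exact binomial interval 199 to 212, counting error only). Every condensin value lay below GFP, but CAPH2 #1 (99.6%) and SMC2 #1 (96.5%) were within counting error of it. Lefty2 (NM_177099, chromosome 1 from 182823250 to 182829233, plus strand) had an RPKM of 68.9 with GFP, 112 with SMC1, 59.3 and 55.0 with CAPH2 and 63.8 and 56.0 with SMC2. SMC1 was at 162% of GFP (156 to 169), and the 4 condensin libraries at 79.9% to 92.6%. In bulk RNA, more expressing cells and more RNA per cell cannot be told apart.

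The Lefty genes are neighbours on chromosome 1, and their coding sequences are identical at 1017 of 1107 positions (91.9%), with an unbroken run of 140 identical bases. Of all 36-base windows of the Lefty1 transcript, 23.0% occur unchanged in Lefty2. The alignment kept reads with 2 places and reported 1 of them, so the split of reads between these genes is uncertain. Their sum is not affected by that split. The summed count was 9556 with GFP and 16124 with SMC1, or 189% of GFP after scaling to library reads (184 to 194), and the condensin libraries lay at 82.5% to 95%.

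The antagonists also moved relative to their ligand. The RPKM ratio of Lefty1 to Nodal was 4.04 with GFP, 3.13 and 3.29 with CAPH2, 4.01 and 3.68 with SMC2 and 7.01 with SMC1. The ratio of Lefty2 to Nodal was 1.63 with GFP, 1.09 and 1.26 with CAPH2, 1.55 and 1.32 with SMC2 and 2.23 with SMC1. Both ratios were highest in the SMC1 library and lowest with CAPH2 #1. The ratio of Gdf3 to Nodal ranged from 1.69 with CAPH2 #1 to 2.24 with SMC2 #1, with SMC1 at 2.16 inside that range.

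Tdgf1 and Acvr2b, which encode the cell-surface components, differed in their pattern. Tdgf1 (NM_011562, chromosome 9 from 110842112 to 110848662, minus strand) had an RPKM of 606 with GFP, 574 with SMC1, 482 and 533 with CAPH2 and 482 and 549.8 with SMC2. GFP was highest, SMC1 next at 94.7% of GFP (92.9 to 96.4), and the condensin libraries lowest at 79.5% to 90.6%. Of the Tdgf1 transcript, 51.7% matches 1 other place of mm9 at up to 96.7% identity, so some of its reads may be counted elsewhere. Acvr2b (NM_007397, chromosome 9 from 119311619 to 119342624, plus strand), an activin type II receptor, had an RPKM of 17.0 with GFP, 21.7 with SMC1, 13.8 and 18.4 with CAPH2 and 19.0 and 19.8 with SMC2. SMC1 was highest, at 128% of GFP (115 to 143), and the CAPH2 hairpins lay on either side of GFP, at 81.3% and 108.6%.

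The intracellular genes were led by Skil. Smad3 (NM_016769, chromosome 9 from 63494574 to 63605801, minus strand), the receptor-regulated SMAD, had an RPKM of 9.37 with GFP, 10.6 with SMC1, 8.38 and 8.42 with CAPH2 and 7.91 and 8.84 with SMC2. The groups did not overlap, with SMC1 above GFP and the condensin libraries below it, although SMC2 #2 was within counting error of GFP (94.3%, 86.2 to 103.2). Smad7 (NM_001042660, chromosome 18 from 75527019 to 75555588, plus strand), an inhibitory SMAD that blocks the receptor, had an RPKM of 26.9 with GFP, 36 with SMC1, 27.3 and 26.6 with CAPH2 and 32.6 and 31.1 with SMC2. The CAPH2 libraries lay within counting error of GFP (101.6% and 98.9%), and the SMC2 libraries stood between GFP and SMC1.

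Skil encodes SnoN, a corepressor of SMAD complexes. It is listed in 2 RefSeq rows that share nearly all counts, of which NM_011386 (chromosome 3 from 30993983 to 31021499, plus strand) was used. Its RPKM was 28.9 with GFP, 60.8 with SMC1, 30.9 and 31.9 with CAPH2 and 30.1 and 35.8 with SMC2. SMC1 was at 210.4% of GFP (203 to 219) and clear of all other libraries, while the condensin libraries lay between 104.3% and 124%. The ratio of Skil to Smad7 was 1.69 in the SMC1 library and 0.92 to 1.20 in the other 5.

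The study's own comparison sets each knockdown against the single GFP library, so the 3 sets of changes share that library. On the deposited RPKM, 8 of the 9 genes were above GFP in the SMC1 library, and the log2 change ranged from -0.08 (Tdgf1) to 1.07 (Skil) with a median of 0.36, against -0.02 over all 15538 expressed rows (GFP RPKM 1 or more). Lefty1 (1.04) and Skil (1.07) reached a log2 change of at least 1. That is 2 of 9 genes higher, beside 6.49% of all rows, and 0 of 9 lower, beside 8.17%. With 1 library on each side there is no test, and the SMC1 values rest on 1 hairpin.

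For CAPH2, 4 of the 9 genes were above GFP and 5 below, the log2 change of the hairpin mean ranged from -0.27 (Lefty2) to 0.21 (Nodal), and the median was -0.07 (-0.01 over all rows). For SMC2, 4 were above and 5 below, from -0.23 (Tdgf1) to 0.25 (Smad7), with a median of -0.02 (-0.03 over all rows). A log2 change of at least 1 in either direction was reached by 0 of 9 genes with CAPH2 and 0 of 9 with SMC2, beside 0.985% and 0.702% of all rows.

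**Figure D2:**
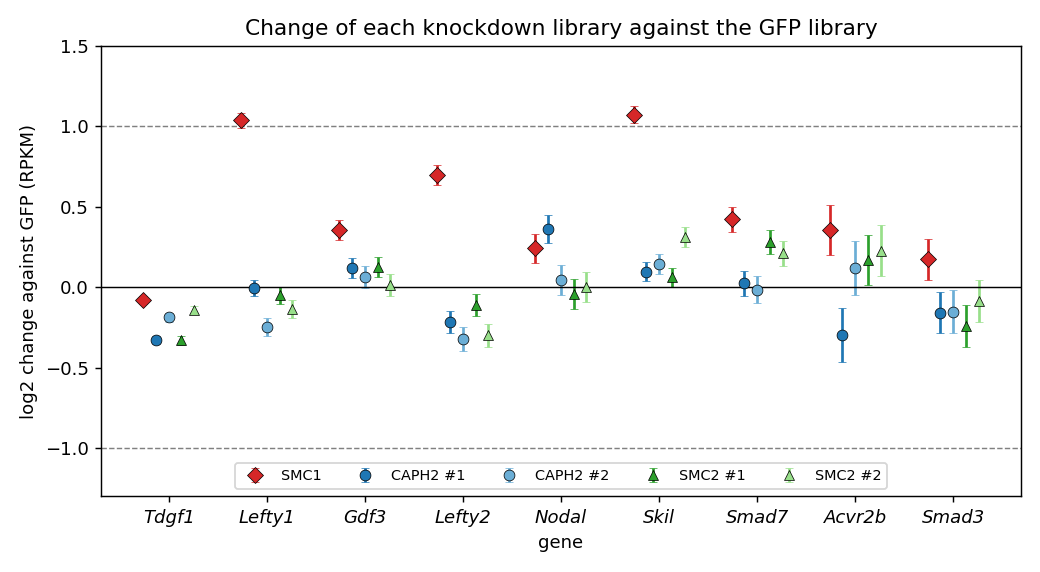
Log2 change from GFP, on the deposited RPKM scale, in each of the 5 knockdown libraries, with 95% exact binomial intervals that cover counting error only, and dashed lines at a log2 change of 1 in each direction. Lefty1 and Skil with SMC1 lie above 1, and all CAPH2 and SMC2 points lie between -0.33 and 0.36.

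Deposited RPKM is scaled to the reads of each library. Scaling instead to the ERCC synthetic RNAs, which were added to RNA from equal cell numbers, shifts every gene of a library by the same log2 amount: 0.86 with SMC1, 0.63 with CAPH2 #1, -0.05 with CAPH2 #2, 0.64 with SMC2 #1 and 0.57 with SMC2 #2. On that scale the SMC1 changes were 1.90 for Lefty1, 1.94 for Skil, 1.56 for Lefty2, 1.11 for Nodal and 0.79 for Tdgf1, which turned from below to above GFP, and 8 of 9 genes reached 1. In the mean of the hairpins, all 5 genes below GFP with CAPH2 turned to above it. These were Lefty1 (0.24), Lefty2 (0.08), Tdgf1 (0.06), Smad3 (0.17) and Acvr2b (0.21). With CAPH2 #2 alone, Lefty1 (-0.30), Lefty2 (-0.37), Tdgf1 (-0.23) and Smad3 (-0.20) stayed below GFP, while Acvr2b was above it on both scales. In the mean of the SMC2 hairpins, all 5 genes below GFP also turned to above it. These were Nodal (0.58), Lefty1 (0.51), Lefty2 (0.40), Tdgf1 (0.37) and Smad3 (0.44). The CAPH2 hairpins differ more from each other in this scale than in any of the 9 genes. Other directions given here are relative to the bulk of transcripts in each library.

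SMC1 was next compared directly with the condensin knockdowns, a contrast that leaves the GFP values out. edgeR's quasi-likelihood test on the counts takes its spread from the hairpin pairs, and the lone SMC1 library is assumed to vary like them. With SMC1, 6 of the 9 genes were called higher and 0 lower at a Benjamini-Hochberg adjusted p under 0.05, with a median log2 difference of 0.27 (-0.01 over all 18463 rows tested). The background was wide in this comparison, in which 23.1% of all rows were called higher and 21.3% lower.

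Lefty1 rose by 1.12 on the log2 scale (SE 0.09, edgeR adjusted p = 1.48e-05), Lefty2 by 0.91 (SE 0.08, adjusted p = 3.97e-05) and Skil by 0.89 (SE 0.09, adjusted p = 5.5e-05). These antagonists and the corepressor had the largest differences of the 9. Smad3 rose by 0.31 (SE 0.09, adjusted p = 0.025), Smad7 by 0.27 (SE 0.07, adjusted p = 0.0141) and Gdf3 by 0.25 (SE 0.07, adjusted p = 0.0213). Acvr2b (0.27, SE 0.14, adjusted p = 0.148), Tdgf1 (0.14, SE 0.09, adjusted p = 0.214) and Nodal (0.12, SE 0.11, adjusted p = 0.398) were not called, so the ligand itself did not pass the test while its antagonists did. The difference between Lefty1 and Nodal was not itself tested.

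The calls of Smad3 and Smad7 depended on single choices, while Gdf3 lost its call only with ERCC scaling. Smad3 was no longer called without SMC2 #1 (0.28, edgeR adjusted p = 0.0556) or by DESeq2 (adjusted p = 0.0836), and Smad7 was not when the 4 condensin libraries formed 1 group (0.27, adjusted p = 0.0686). Without CAPH2 #2, Acvr2b (0.39, adjusted p = 0.00294) and Tdgf1 (0.18, adjusted p = 0.0452) were called as well. With ERCC scaling Lefty1 alone was called (1.53, adjusted p = 0.0156), while Lefty2 (1.32, adjusted p = 0.0522) and Skil (1.32, adjusted p = 0.051) were just above the threshold.

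**Figure D3:**
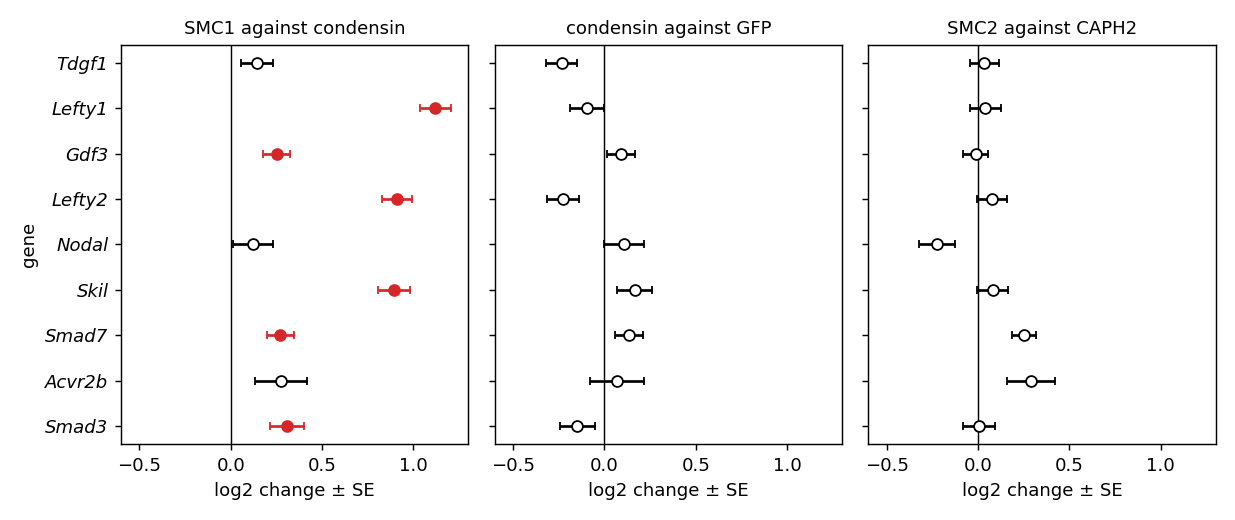
Log2 difference with its SE from edgeR for the 9 genes in 3 comparisons, with genes at an adjusted p under 0.05 in red. In SMC1 against condensin, Lefty1, Lefty2 and Skil lie between 0.89 and 1.12 and Nodal at 0.12, and no gene is called in the other comparisons.

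The 4 condensin libraries together were also compared with GFP. By edgeR 0 of 9 genes were called, 2 of 9 had an unadjusted p under 0.05 (30.6% of all rows), and DESeq2 called 0 of 9. Of all rows, edgeR called 7.04% higher and 5.43% lower. Tdgf1 had the largest difference (-0.23, SE 0.09, edgeR adjusted p = 0.103), followed by Lefty2 (-0.22, SE 0.09, adjusted p = 0.119). The call hung on single libraries. Tdgf1 was called without CAPH2 #2 (-0.29, adjusted p = 0.00269) or without SMC2 #2 (-0.30, adjusted p = 0.0398). Lefty2 was called without CAPH2 #1 (-0.25, adjusted p = 0.025) or without CAPH2 #2 (-0.22, adjusted p = 0.0478).

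SMC2 and CAPH2 knockdowns, each with 2 hairpins, could be tested against each other with replicates on both sides. Here edgeR called 0 of 9 genes, beside 0.00548% of all rows in either direction. An unadjusted edgeR p under 0.05 was reached by 2 of 9 (3.10% of all rows), and DESeq2 called 0 of 9. Acvr2b (0.29, SE 0.13), Smad7 (0.25, SE 0.07) and Nodal (-0.22, SE 0.10) had the largest differences. Without CAPH2 #2, Nodal (-0.37, edgeR adjusted p = 0.00919) and Acvr2b (0.50, adjusted p = 0.00626) were called. That fit has 1 CAPH2 library, takes its spread from the SMC2 pair alone and assumes that CAPH2 #1 varies like it, and it called 404 rows in place of 1.

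The wider pathway was followed in 42 further genes, a list chosen with earlier results of these data known, of which 40 could be tested. In SMC1 against condensin, edgeR called 19 higher and 6 lower, and 15 did not pass, with a median log2 difference of 0.22 (-0.01 over all rows). Over all rows, 23.1% were called higher and 21.3% lower. By role, this was 4 higher and 3 lower of 10 ligands and processing enzymes, 4 and 1 of 6 receptors and coreceptors, 3 and 0 of 5 signal transducers, 6 and 1 of 12 inhibitors, and 2 and 1 of 7 target genes. Among the transducers Foxh1, Smad4 and Zfyve9 were called higher. In condensin against GFP, 6 were called higher (Acvr2a, Fst, Inhba, Tgfb2, Tgfbr1 and Trim33) and 1 lower (Gdf1, whose exons are shared with Cers1 in a bicistronic transcript, so that its counts are uncertain), beside 7.04% and 5.43% of all rows. In SMC2 against CAPH2 edgeR and DESeq2 called 0 of 40, beside 0.00548% of all rows by edgeR.

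The activin and inhibin subunits are ligand chains that signal through the same receptors as Nodal or oppose them. They had the largest changes with SMC1 among the genes named that had a mean of at least 50 counts. Inhbb had 2157 counts with GFP and 84 with SMC1, an RPKM of 23.6 and 1.03, against 17.0 to 22.9 in the condensin libraries. Inhba ran the other way, with an RPKM of 2.34 with GFP, 23.6 with SMC1 and 4.0 to 9.0 with condensin shRNAs, so all 5 knockdown libraries lay above GFP. In SMC1 against condensin Inhbb fell by 4.30 (SE 0.13, edgeR adjusted p = 2.42e-07), Inhba rose by 1.80 (SE 0.27, adjusted p = 0.000596) and Inha, with 83 counts with GFP and 19 with SMC1, fell by 1.53 (SE 0.41, adjusted p = 0.0128). In condensin against GFP Inhba rose by 1.52 (SE 0.39, edgeR adjusted p = 0.0353), a call lost with DESeq2 (adjusted p = 0.122) and with ERCC scaling.

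Among target genes of the pathway, Eomes, which encodes a T-box factor of early mesoderm and endoderm, with an RPKM of 5.03 with GFP, 3.43 with SMC1 and 5.22 to 6.69 with condensin shRNAs, fell by 0.85 in SMC1 against condensin (edgeR adjusted p = 0.001). Gsc, Mixl1, Foxa2 and Pmepa1 did not pass the test.

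Tgfbr1, Tgfbr2, Tgfbr3 and Acvr2a were higher with SMC1, while the receptor Acvr1b and the coreceptor Cfc1 were lower. Acvr1b had an RPKM of 21.6 with GFP, 15.8 with SMC1 and 17.4 to 21.7 with the condensin shRNAs. In SMC1 against condensin Acvr1b was not called (-0.32, edgeR adjusted p = 0.0605). Cfc1, with 33 counts with GFP and 4 with SMC1, fell by 1.95 in that comparison (edgeR adjusted p = 0.0483). Tgfbr1 had an RPKM of 7.44 with GFP, 18.2 with SMC1 and 10.4 to 12.1 with the condensin shRNAs, and rose both in SMC1 against condensin (0.66, SE 0.08, edgeR adjusted p = 0.000203) and in condensin against GFP (0.62, SE 0.09, adjusted p = 0.00951). Tgfbr2 (0.81, 2.53 and 0.85 to 1.36) rose by 1.13 in SMC1 against condensin (adjusted p = 0.00259). Acvr2a, the type II receptor of Nodal and activins beside Acvr2b, had an RPKM of 3.50, 6.97 and 4.54 to 5.05, and rose by 0.53 (adjusted p = 0.00213). Its row overlaps Orc4 on the other strand by 413 bases. Tgfbr3, with an RPKM of 0.55 to 1.10 in the 6 libraries, rose by 0.68 (adjusted p = 0.0332), a call lost without SMC2 #1 (0.62, adjusted p = 0.0763). Acvr2a was called in condensin against GFP as well (0.45, adjusted p = 0.0281), but not without SMC2 #1 (adjusted p = 0.0571) or SMC2 #2 (adjusted p = 0.0583), nor by DESeq2 (adjusted p = 0.0947).

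Among the other ligands and inhibitors, Tgfb3 (RPKM 1.52 with GFP, 4.90 with SMC1, 1.40 to 2.37 with condensin shRNAs) rose by 1.38 in SMC1 against condensin (edgeR adjusted p = 0.00102) and Gdf11 (1.44, 3.10 and 1.45 to 2.08) by 0.85 (adjusted p = 0.0103). Fst, which encodes the activin-binding protein follistatin, had an RPKM of 3.64, 10.2 and 6.21 to 8.93. It rose by 0.52 in SMC1 against condensin (adjusted p = 0.0285) and by 0.96 in condensin against GFP (adjusted p = 0.0185). Gdf11, Tgfbr3 and Fst lost the SMC1 call with DESeq2 (adjusted p = 0.13, 0.197 and 0.074). With ERCC scaling, 7 of the 40 genes were called in SMC1 against condensin (6 higher, 1 lower) and 0 in condensin against GFP. Far fewer of all rows were called with that scaling too, in both comparisons, with the counts given in the closing section.

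**Figure D4:**
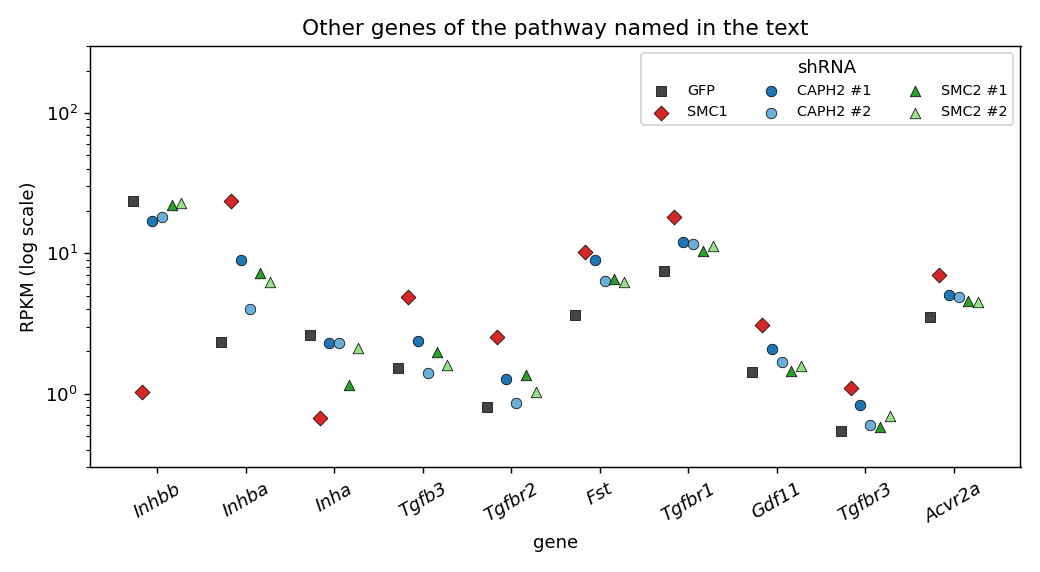
Deposited RPKM (log axis) of the 10 further pathway genes described above, 1 point per library, ordered by the size of the change with SMC1. The SMC1 point (red diamond) is the lowest for Inhbb and Inha, at 1.03 and 0.68, and the highest for the other 8.

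The transcripts whose profile over the 6 libraries was most like that of Nodal were Trafd1, Etfdh and Gne, with a root mean square difference of 0.03, 0.05 and 0.05 in centred log2 RPKM over 12118 genes compared. For Lefty1 they were Zfp783, Prnp and Morc4 (0.07 each), and for Lefty2 Thnsl2, Cd40 and Crabp2 (0.06, 0.07 and 0.08). Trafd1, for instance, had an RPKM of 12.6 with GFP, 14.7 with SMC1, 15.8 and 12.8 with CAPH2 and 12.8 and 12.5 with SMC2, with its highest value in CAPH2 #1 as for Nodal. With 6 libraries such a match is a description of these profiles only.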

How the data were processed

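RNA-seq libraries were made from V6.5 ESCs (6 in all), 1 for GFP, 1 for SMC1 and 2 for each condensin subunit. Alignment by the authors used Bowtie and mm9 (options -e 70, -k 1, -m 2 and -n 2). Reads with more than 2 places were thereby discarded. The deposited files give the exonic read count and the RPKM of each RefSeq transcript. A read in a shared exon counts for every isoform, and no strand setting is given in the sources used here. The deposited RPKM is scaled to exon length and library reads. Before RNA-seq, 1.42 µl of diluted ERCC RNAs was added to RNA from 652000 cells. The study's methods give a higher puromycin concentration than the labels, whose values are printed.

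The 9 genes, the 42-gene pathway list and the marker lists were chosen with earlier results of these data known. Log2 changes against GFP used the deposited RPKM with no pseudocount, with hairpins averaged before the log2, over expressed rows (GFP RPKM 1 or more). Intervals are 95% exact binomial (Clopper-Pearson) intervals and cover counting error only. The counts were tested with edgeR 4.0.16 (TMM, quasi-likelihood, Benjamini-Hochberg) on rows that reach 10 counts in 2 or more libraries, with CAPH2 and SMC2 alone (4 libraries) or all 6 in 4 groups, in which condensin means the average of the CAPH2 and SMC2 groups. The fit was first tested on simulated data in which all libraries had the same spread. That could not check the assumption that the lone GFP and SMC1 libraries vary like the hairpin pairs. DESeq2 1.42.0 served as another tool.

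The named genes are the 9 and, of the pathway list, the 12 with the largest change in SMC1 among those called by edgeR or changed by 1 or more (log2) with SMC1, at a mean of at least 50 counts, and the 3 nearest profiles of Nodal, Lefty1 and Lefty2. Results for 2 of these 12 are not reported here. Foxh1, Smad4, Zfyve9, Tgfb2, Trim33, Gdf1, Eomes, Gsc, Mixl1, Foxa2, Pmepa1, Acvr1b and Cfc1 were named outside this rule, after their values were seen. Acvr1c and Cer1 had too few counts to test. Other copies of each transcript were searched in mm9 with blastn 2.17.0 (at least 95% identity over at least 100 bases). Other steps used Python 3.11.15 and scipy 1.17.1. Alternatives were other scalings (TMM, DESeq2 size factors, ERCC), filters, a pseudocount of 1, 1 row per gene, a replicate block, condensin as 1 group and leaving out each hairpin. Summing Lefty1 and Lefty2 was added after seeing the data.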

Additional observations from a re-analysis of the deposited data

Results flagged for a closer look

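The effect of SMC1 and of the condensin knockdowns differed by the edgeR contrast itself (Benjamini-Hochberg adjusted p under 0.05), as a log2 difference of SMC1 against condensin, for Lefty1 (1.12), Lefty2 (0.91), Skil (0.89), Smad3 (0.31), Smad7 (0.27) and Gdf3 (0.25). For 10 further pathway genes, the differences were -4.30 for Inhbb, 1.80 for Inhba, -1.53 for Inha, 1.38 for Tgfb3, 1.13 for Tgfbr2, 0.52 for Fst, 0.66 for Tgfbr1, 0.85 for Gdf11, 0.68 for Tgfbr3 and 0.53 for Acvr2a. These 10 were picked for a large change with SMC1, so that they differ here follows largely from that choice. Over all rows, 23.1% were called higher and 21.3% lower in this contrast. The contrast rests on 1 SMC1 library.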

How the results depend on the processing

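Of the 9 genes in SMC1 against condensin, Lefty1 was called under 11 of 11 alternatives, Lefty2, Skil and Gdf3 under all but ERCC scaling, Smad7 under 9 and Smad3 under 8. ERCC scaling moved most counts: 8 members reached a log2 change of 1 in SMC1 against GFP (2 with RPKM), 1 of 9 members and 7 pathway genes were called in SMC1 against condensin (6 and 25 with TMM), with 1711 rows (1541 higher, 170 lower) in place of 8196 (4267 and 3929), and in condensin against GFP 2 rows (2 higher, 0 lower) in place of 2302 (1300 and 1002) and 0 pathway genes in place of 7. It reversed condensin against GFP for Lefty1 (0.37), Lefty2 (0.24), Tdgf1 (0.21), Smad3 (0.31), Inhbb (0.22) and Inha (0.015), and SMC2 against CAPH2 for Nodal (0.0013) and Gdf3 (0.24). The ERCC share of counts was 1.11% and 1.77% in the CAPH2 hairpins.

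The replicate numbers of the labels name hairpins and do not pair libraries. The deviations of same-numbered libraries correlated at r = 0.0433, over 18463 rows and only 2 pairs. With the number as a replicate block, 2 members were called in condensin against GFP (Lefty2, -0.23, edgeR adjusted p = 0.0263, and Tdgf1, -0.24, adjusted p = 0.0112), with 13 pathway genes and 4399 rows, 7 members in SMC1 against condensin (Acvr2b added, 0.28, adjusted p = 0.0366) and 15 rows in SMC2 against CAPH2.

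With no filter on low counts, 1 member was called in condensin against GFP (Tdgf1, -0.24, edgeR adjusted p = 0.0419) and 8 rows in SMC2 against CAPH2. In place of 1 row in the latter, DESeq2 size factors gave 3, DESeq2 itself 5 and ERCC scaling 4. DESeq2 called 1424 rows and 3 pathway genes in condensin against GFP, and 17 pathway genes in SMC1 against condensin. With no minimum RPKM, the rows with a log2 change of at least 1 were 24.0% for SMC1, 5.46% for CAPH2 and 4.89% for SMC2, and with a minimum of 5 they were 9.65%, 0.296% and 0.254%. The cause of these moves was not tested.

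Leaving out each hairpin in turn gave 5 to 8 members, 21 to 28 pathway genes and 7049 to 9247 rows in SMC1 against condensin, 0 to 2, 4 to 16 and 1563 to 5000 in condensin against GFP, and 0 to 2, 0 to 4 and 1 to 404 in SMC2 against CAPH2. The highest counts of the comparisons with GFP and with CAPH2 came without CAPH2 #2. No member reached a log2 change of 1 with CAPH2 or SMC2 (0 to 0). It reversed condensin against GFP for Acvr2b (-0.059 to 0.17) and small uncalled differences in SMC2 against CAPH2, for Gdf3 (-0.070 to 0.042), Lefty1 (-0.078 to 0.16), Lefty2 (-0.022 to 0.17), Tdgf1 (-0.062 to 0.12), Smad3 (-0.075 to 0.082) and Skil (-0.049 to 0.20).

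Several differences of the 9 genes from GFP with single CAPH2 or SMC2 hairpins are within counting error. The variation of the lone GFP and SMC1 libraries was not measured.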
